A study of Mus musculus with 25 samples.

Results

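The genes examined here were the Irx and Bar homeobox genes, 10 transcription factor genes (Irx1, Irx2, Irx3, Irx4, Irx5, Irx6, Barx1, Barx2, Barhl1 and Barhl2) taken by symbol from the H3K27me3 peak lists of regenerating mouse myofibers. They are 10 of 6092 genes with at least 1 peak in the 12 lists, and 291 of 34244 peaks were assigned to them. All mice carried the Pax7-Cre(ERT2) driver, active in muscle stem cells, together with a mito-Dendra2 allele that marks their progeny, so controls shared the driver, reporter, tamoxifen (75 mg/kg on each of 5 days) and BaCl2 injury (50 µL of a 1.2% solution, 2 days later). Dendra2+ myofibers of the tibialis anterior muscle were collected at 14 days post injury (dpi). The groups were wild-type, mfn2-/- (without mitofusin 2, a mitochondrial fusion protein), vhl-/- (without the protein that targets HIF1α for degradation) and HIF1dPA (expressing a HIF1α that VHL does not recognize), with 3 H3K27me3 libraries each. Ages were not given in the sources used here.

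H3K27me3 is placed by Polycomb repressive complex 2 and is found over silenced developmental genes, often as broad stretches across homeobox loci. The Iroquois (Irx) genes encode homeodomain proteins of the TALE class and lie in a pair of clusters, Irx1-Irx2-Irx4 and Irx3-Irx5-Irx6, which pattern the heart, limb, nervous system and other organs. The Bar genes encode NK-like homeodomain proteins. Barx1 acts in stomach and tooth, Barx2 is known from myoblasts and muscle stem cells, and Barhl1 and Barhl2 act in neurons of the ear, retina, spinal cord and cerebellum.

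Each list gives peaks with a score (10 times the negative log10 of the p-value of the peak caller) of at least 50. A pair of quantities is used here. The covered length is the summed length of the peaks that the authors assigned to a gene, in bp. The percentile ranks the best peak of a gene by score within its own list, where 100 is the strongest peak and 0 marks no peak. Wild-type lists held 3433 to 3776 peaks, mfn2-/- lists 3358 to 3679, vhl-/- lists 3636 to 4035 and HIF1dPA lists 482 to 501. The X chromosome held 30.2% of the peaks of mfn2-/- lists on average and at most 1.24% in any other list, whereas all 10 members are autosomal. Percentiles rank the peaks of all chromosomes together, so these X peaks enter the mfn2-/- percentiles. Read numbers are unknown, so a shorter covered length means that less was called. In bulk chromatin, fewer nuclei with the mark and less mark per nucleus cannot be told apart. Of the marker genes examined, 0 of 10 myofiber genes, 0 of 3 endothelial and 0 of 3 macrophage genes had a peak in any list, Pax7 had one in 5 lists, Myf5 in 1 and Pdgfra in 9, while Dcn and Ly6a, the other fibro-adipogenic markers, had 0. A silencing mark cannot name the cells that carry it, so the labelled tissue could not be checked by these genes.

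Members carried more peaks, and longer covered stretches, than most marked genes. In lists where it was marked, a member had a median of 3 peaks and 2758 bp, compared with 1 peak and 859 bp over all genes. Barhl2 ranked 63rd among the 6092 genes by mean covered length over the 12 lists, Irx5 ranked 111th, Irx2 113th and Barx1 142nd. Irx6 ranked 960th and Irx3 1932nd. Barhl2 had 65 peaks in 10 lists, Barx1 44 in 11, Irx2 41 in 11 and Irx5 35 in 11, whereas Irx6 had 10 in 6 lists and Irx3 had 2 in 2. Promoter classes (up to 3 kb from a start site) held 45.4% of member peaks and 50.4% of all autosomal peaks, distal intergenic sequence 43.3% and 31.4%, and introns 1.37% and 13.6%. Overlapping member peaks merged into 79 regions, of which 43 (54.4%) were called in a single list, compared with 69.6% of 13095 autosomal regions. The most shared were regions at Irx5 (chr8:92358614-92366167, build mm10) and beside Barx1 (chr13:48656809-48662331), each in 11 of 12 lists. Peaks carry no strand, and these coordinates are those of the lists or of peaks merged from them.

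The peaks mostly lay beside the start sites of members rather than on them. RefSeq promoter windows (250 bases before to 50 after a start, build GRCm38.p6) were at hand for 6 of the 10 members, namely Barhl1 (2 windows), Barhl2, Barx1, Irx2, Irx3 and Irx4. Over the member and list pairs with an assigned peak within 5 kb of the window, a peak touched the window in 13 of 48 (27.1%), close to the 24.9% over 7242 such pairs of all genes. The windows below show the range, from the window most often under a peak (Barhl1) to a pair of CG-dense starts with peaks on either side. All are written 5′ to 3′ on the strand of the gene, and capitals mark every CG dinucleotide.
Barhl1 (chr2:28912446-28912745, minus strand): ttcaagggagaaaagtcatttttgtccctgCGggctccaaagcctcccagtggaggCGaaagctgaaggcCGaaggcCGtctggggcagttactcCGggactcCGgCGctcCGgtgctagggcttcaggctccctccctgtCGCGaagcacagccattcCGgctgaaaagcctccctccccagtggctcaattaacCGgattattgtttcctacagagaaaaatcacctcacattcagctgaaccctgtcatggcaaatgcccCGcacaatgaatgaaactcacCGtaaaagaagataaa
Barhl2 (chr5:106458117-106458416, minus strand): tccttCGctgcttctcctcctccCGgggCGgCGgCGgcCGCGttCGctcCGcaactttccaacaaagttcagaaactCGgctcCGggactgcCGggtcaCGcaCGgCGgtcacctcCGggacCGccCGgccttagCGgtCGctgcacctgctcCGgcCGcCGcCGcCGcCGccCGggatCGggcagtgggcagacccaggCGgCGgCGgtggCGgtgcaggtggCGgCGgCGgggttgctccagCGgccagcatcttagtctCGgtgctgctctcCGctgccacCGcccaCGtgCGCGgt
Barx1 (chr13:48662786-48663085, plus strand): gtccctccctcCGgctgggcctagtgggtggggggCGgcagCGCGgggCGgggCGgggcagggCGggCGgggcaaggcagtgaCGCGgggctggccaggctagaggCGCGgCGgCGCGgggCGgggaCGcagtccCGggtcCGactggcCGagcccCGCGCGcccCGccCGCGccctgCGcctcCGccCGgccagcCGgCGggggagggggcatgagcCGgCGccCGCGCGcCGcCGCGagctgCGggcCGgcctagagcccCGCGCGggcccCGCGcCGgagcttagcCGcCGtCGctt
Irx4 (chr13:73260247-73260546, plus strand): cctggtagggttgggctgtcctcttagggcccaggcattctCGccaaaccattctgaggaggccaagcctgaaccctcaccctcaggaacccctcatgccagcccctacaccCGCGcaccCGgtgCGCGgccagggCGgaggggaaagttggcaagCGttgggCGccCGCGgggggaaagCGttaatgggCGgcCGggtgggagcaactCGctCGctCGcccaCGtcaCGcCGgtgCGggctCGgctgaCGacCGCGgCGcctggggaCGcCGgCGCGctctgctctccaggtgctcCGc

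The Barhl1 window held 14 CG and was touched by a peak in 5 lists (1 wild-type, 2 mfn2-/-, 1 vhl-/- and 1 HIF1dPA). The Barhl2 window held 42 CG and was touched in 3 lists (2 wild-type and 1 vhl-/-). With 50 CG the Barx1 window was denser than nearly all promoters (0.855% of 32851 windows had as many, against a median of 7), and 1 mfn2-/- list had a peak on it. The Irx4 window, with 31 CG, was touched in 0 lists, and the nearest peak edge was 256 bp away. Irx3, with 14 CG, was likewise untouched, with the nearest peak 529 bp away, and Irx2, with 25 CG, was touched in 3 lists. These counts describe the windows, and the part of base composition in where peaks were called was not tested.

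**Figure D1:**
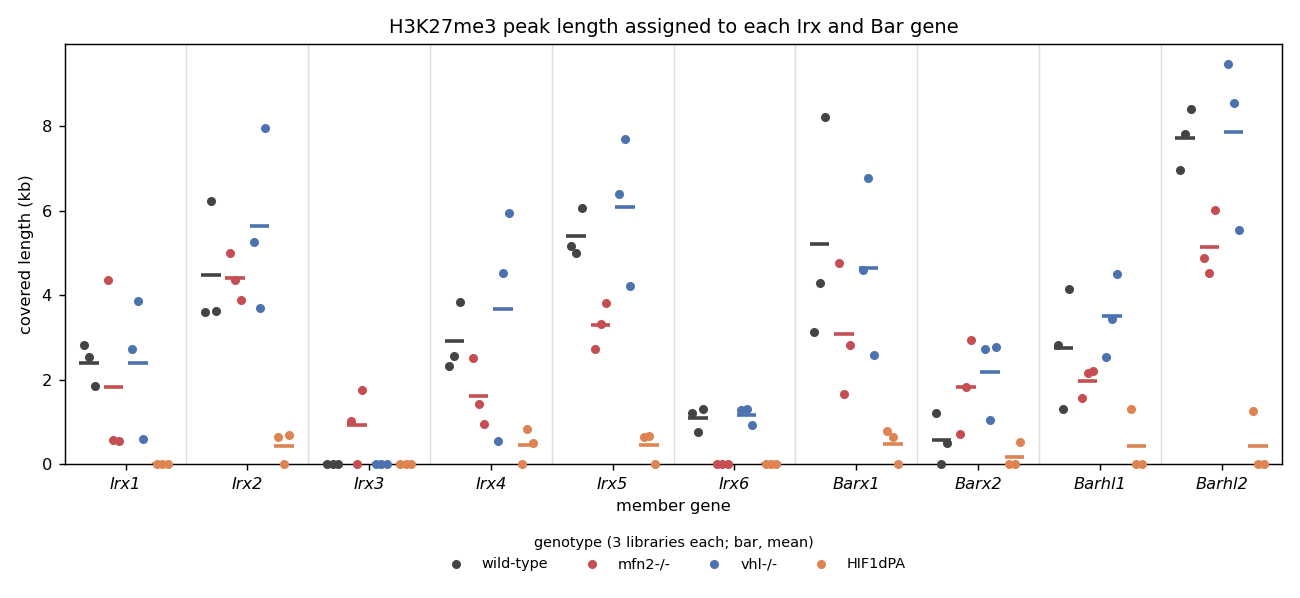
Covered length (kb, y axis) of H3K27me3 peaks assigned to each member (x axis) in the 12 libraries. Points are libraries and bars are means of 3. The 3 mfn2-/- points of Irx5, Irx6 and Barhl2 lie below all 3 wild-type points, and HIF1dPA points lie between 0 and 1311 bp.

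To ask whether the mark at these genes differed with genotype, the members listed and their summed length were compared. A peak was assigned to 9, 8 and 9 of the 10 members in the wild-type lists, to 9, 8 and 9 in mfn2-/- lists, to 9 in each vhl-/- list and to 5, 3 and 3 in HIF1dPA lists. By this number, only HIF1dPA lists did not overlap wild-type lists. The summed length was 29210, 30484 and 37969 bp in wild-type lists, 27532, 19796 and 24921 bp in mfn2-/- lists, 35531, 40872 and 35031 bp in vhl-/- lists and 4630, 2125 and 1706 bp in HIF1dPA lists. All mfn2-/- values were below all wild-type values, whereas wild-type and vhl-/- values overlapped. With the 9 lists held to their 2342 strongest autosomal peaks, an alternative added after the data were seen, the sums were 23443, 28648 and 29052 bp in wild-type and 27532, 19796 and 23845 bp in mfn2-/- lists, and these overlapped. As a share of all base pairs in the list, members took 1.03% ± 0.216 (SD, n = 3 here and for the other genotypes) of wild-type and 0.987% ± 0.0376 of vhl-/- lists. The share was 0.830% ± 0.0820 for mfn2-/- and 0.831% ± 0.494 for HIF1dPA, whose values spanned those of the other genotypes. The mfn2-/- total includes its X peaks. As a share of autosomal base pairs alone (also added later), the direction for mfn2-/- turned, with 1.11% ± 0.0996 against 1.03% ± 0.216 in wild-type lists, and their values overlapped. When each list was held to its 482 strongest peaks, wild-type lists named 4.33 ± 0.577 members and mfn2-/- lists 4.33 ± 1.15, while vhl-/- lists named 3.33 ± 1.15 and HIF1dPA lists 3.67 ± 1.15.

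**Figure D2:**
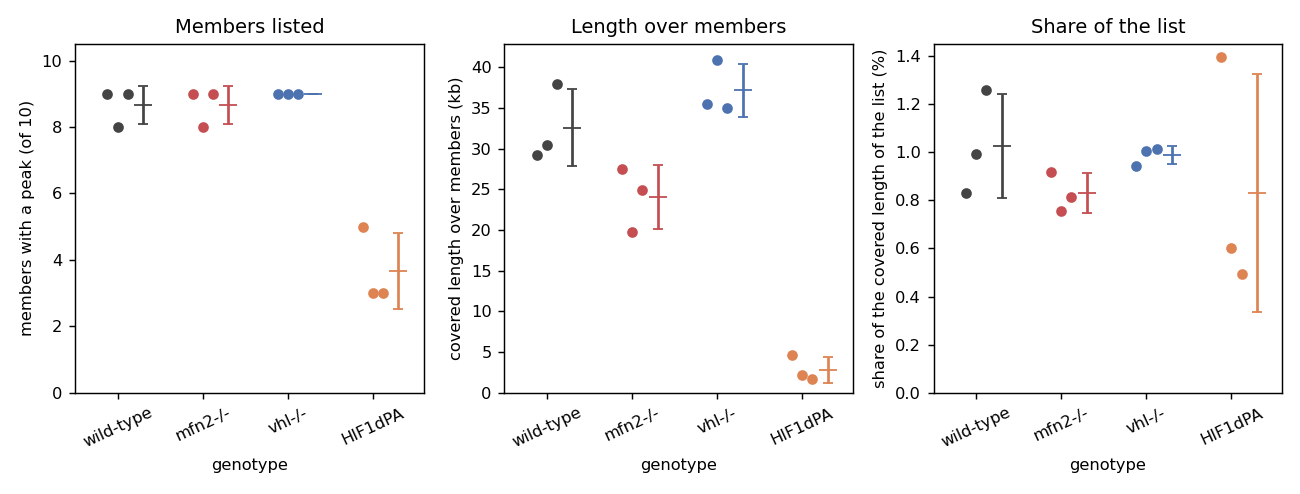
Members with a peak (left), covered length over members in kb (middle) and that length as a percentage of the covered length of the list (right), by genotype (x axis). Points are libraries and crosses with bars are mean ± SD of 3. HIF1dPA lists stand apart in the first and second panels, at 3 to 5 members, and overlap the other genotypes in the third.

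No member passed the test across all genes. Covered length was compared among the 4 genotypes by an exact permutation test over libraries (15400 arrangements, smallest p 6.49e-05), adjusted by Benjamini-Hochberg over 2394 genes with a peak in at least 3 lists. Of these genes 44 (1.84%) had an adjusted p under 0.05, and 794 an unadjusted p under 0.05. All members but Irx3 were tested, and 0 of 9 passed, with 5 of 9 at an unadjusted p under 0.05. The far shorter HIF1dPA lists are part of each of these p-values. The lowest were Irx5 (exact permutation p = 0.00110, adjusted p = 0.0535) and Barhl2 (p = 0.00214, adjusted p = 0.0564), followed by Irx6, Irx2 and Barhl1 with adjusted exact permutation p of 0.0680, 0.0734 and 0.0936. These calls sat at the threshold: without vhl-/- replicate 3 the adjusted exact permutation p was 0.0316 for Irx5 and 0.0339 for Barhl2, without wild-type replicate 2 it was 0.0496 for Irx5, and on autosomal peaks alone it was 0.0496 for Irx5. For Barhl2 the adjusted exact permutation p was 0.0462 at a score of at least 100, 0.0462 with peaks joined within 1000 bp and 0.0427 within 5 kb of the gene (added later), and with the other alternatives it ran up to 0.877, as it did up to 0.927 for Irx5, both on list shares. Over all single-library omissions the adjusted exact permutation p ranged from 0.0316 to 0.101 for Irx5 and from 0.0339 to 0.0976 for Barhl2. The number of genes called is as unsteady, with 0 without mfn2-/- replicate 1 or any 1 HIF1dPA library, 9 without vhl-/- replicate 2, 23 without mfn2-/- replicate 2, 71 and 72 without wild-type replicates 1 and 2 and 104 without vhl-/- replicate 3. Among wild-type, mfn2-/- and vhl-/- lists alone (280 arrangements, smallest p 0.00357), 0 of 2294 genes (0%) passed by covered length. An unadjusted p under 0.05 was found for 403, Irx6 among them (exact permutation p = 0.0250, adjusted p = 0.219). In both tests Irx6 entered only through its wild-type and vhl-/- peaks. Without HIF1dPA the exact permutation p was 0.0607 for Irx5 (adjusted p = 0.322) and 0.118 for Barhl2 (adjusted p = 0.458). By percentile, 0 of 2294 genes (0%) passed in those 9 lists, with 347 and no member at an unadjusted p under 0.05.

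Irx5 was the 1 member whose covered length did not overlap between wild-type and mfn2-/- libraries as assigned, within 5 kb of the gene and with equal numbers of autosomal peaks. This is not particular to Irx5, since 15.5% of all genes tested were lower in mfn2-/- without overlap as assigned. The shares for the other settings are given below. Irx5 lies in the middle of the Irx3-Irx5-Irx6 cluster and is known for setting up repolarization across the heart wall. Its covered length was 5162, 4990 and 6077 bp in wild-type lists and 2726, 3312 and 3813 bp in mfn2-/- lists, so the groups did not overlap. Means were 5409.7 ± 584 and 3284 ± 544 bp (SD, n = 3 each), a ratio of 0.607 (exact permutation p = 0.1, the smallest that 3 against 3 libraries allow). The vhl-/- values of 6387, 7695 and 4214 bp overlapped wild-type, and HIF1dPA lists had 648, 668 and 0 bp. In wild-type and mfn2-/- lists nearly all of this length came from the region chr8:92358614-92366167, which starts inside the gene (RefSeq span chr8:92357796-92361456) and runs past its upper end, and over this region alone wild-type lists had 4662 to 5499 bp and mfn2-/- lists 2726 to 3813 bp. In vhl-/- lists it held 5069, 5267 and 2780 bp, and a second region (chr8:92368585-92370399) was called in 2 vhl-/- lists and in 0 others. The mfn2-/- and wild-type lengths also did not overlap when any peak within 5 kb of the gene was counted (2726 to 3813 against 4990 to 7820 bp) or when the 9 lists were held to their 2342 strongest autosomal peaks (2726 to 3813 against 4662 to 5499 bp), both added after the data were seen. With promoter classes alone they overlapped, as they did as a share of autosomal base pairs, at 0.147% to 0.202% in wild-type and 0.121% to 0.172% in mfn2-/- lists. By rank the groups overlapped, since the best Irx5 peak stood at percentiles 97.9, 97.2 and 98.9 in wild-type lists and 75.3, 75.4 and 97.7 in mfn2-/- lists.

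Barhl2, a regulator of retinal and spinal neuron identity, had the longest coverage of all members. Wild-type lists had 6963, 7808 and 8412 bp, mfn2-/- lists 4873, 4530 and 6025 bp, vhl-/- lists 9478, 8547 and 5544 bp and HIF1dPA lists 1255, 0 and 0 bp. Every mfn2-/- value was below every wild-type value, with a difference in means of -2585 bp and a ratio of 0.665. The percentile of its best peak was also lower in mfn2-/- (89.1, 87.0 and 83.1) than in wild-type lists (95.9, 98.0 and 95.0), whereas vhl-/- lists had 97.8, 97.0 and 84.8. The part of the mfn2-/- X peaks in these percentiles was not tested. The Barhl2 peaks reached up to 164002 bp from the gene, and 42 of 65 were distal intergenic. Within 5 kb of the gene the groups overlapped (2456 to 5361 bp in mfn2-/-, 4042 to 6909 bp in wild-type), as they did with equal numbers of autosomal peaks and as a share of autosomal base pairs. At the region downstream of the gene called in 10 lists (chr5:106446266-106451349), mfn2-/- lists had 2479.7 ± 774 bp and wild-type lists 2269.7 ± 1163 bp. Gm26872, a predicted gene beside Barhl2 chosen after its values were seen, had 6545 ± 1003 bp in mfn2-/- and 5813 ± 1339 bp in wild-type lists.

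Irx6 had peaks in every wild-type and vhl-/- list and in 0 mfn2-/- and 0 HIF1dPA lists. Its covered length was 1219, 760 and 1314 bp in wild-type and 1276, 1292 and 923 bp in vhl-/- lists. These were the weakest peaks of the family, with scores of 50.15 to 87.58 against the limit of 50, and 8 of 10 were under 60. They also fell in different places: 8 of the 9 Irx6 regions were called in 1 list, the remaining one was shared by 2 vhl-/- lists, and the peaks of the wild-type lists ranged from inside the gene to 128310 bp away. At a score of at least 100 no list had an Irx6 peak. Within 5 kb of the gene, 2 of 3 wild-type, 3 of 3 vhl-/-, 0 mfn2-/- and 0 HIF1dPA lists had a peak.

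Irx3 showed the opposite pattern by assignment. The gene is a regulator of cardiac conduction and of adipose and hypothalamic functions, and peaks were assigned to it in mfn2-/- replicates 1 (1028 bp, score 84.12) and 3 (1752 bp, score 138.76) and in 0 other lists. Peaks at slightly higher coordinates were assigned to Irx3os, its antisense transcript, with 11 peaks in 7 lists within 5 kb of Irx3. Counting every peak within 5 kb of the gene, wild-type lists had 1764, 0 and 1108 bp, mfn2-/- lists 2231, 0 and 2584 bp, vhl-/- lists 236, 3005 and 1548 bp and HIF1dPA lists 0, and the first 3 genotypes overlapped. The mfn2-/- peaks nevertheless lay over the gene itself, where no wild-type or vhl-/- list had a peak, and this held for 2 of 3 mfn2-/- lists.

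**Figure D3:**
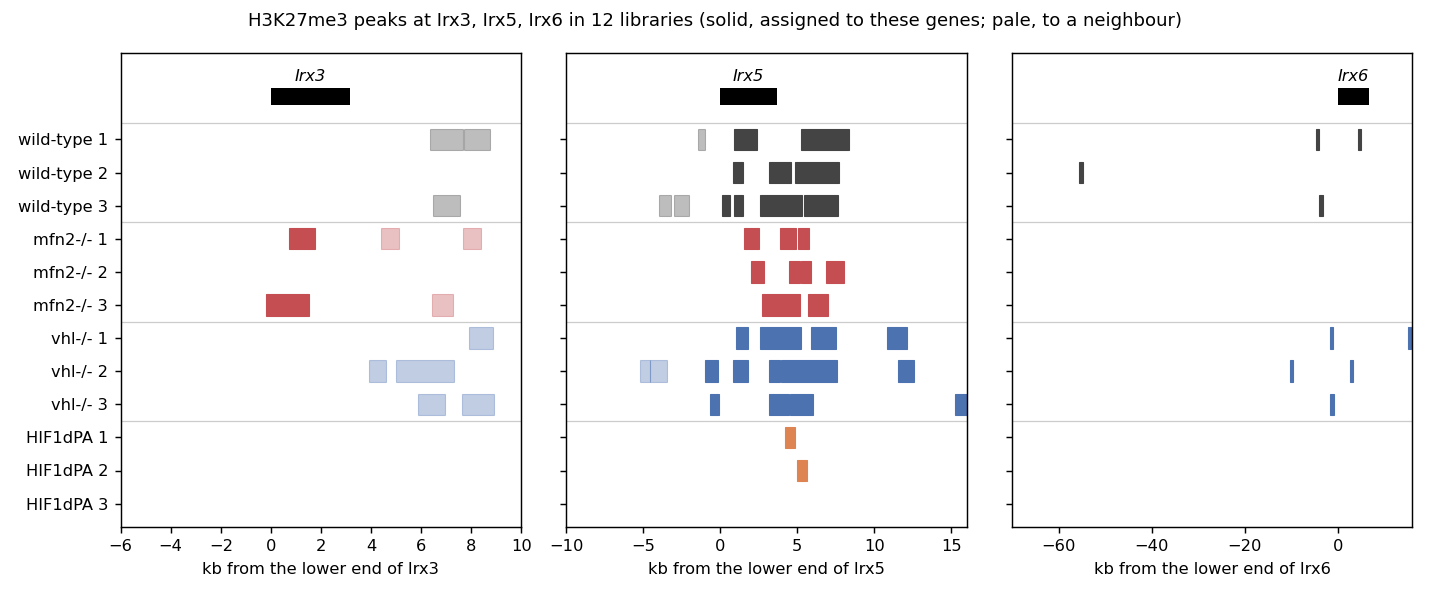
H3K27me3 peaks around Irx3, Irx5 and Irx6 in each of the 12 libraries (rows), as distance in kb from the lower-numbered end of each gene (x axis, a separate scale per panel; peaks farther out are not drawn). Black bars are the genes, solid blocks peaks assigned to these genes and pale blocks peaks assigned to a neighbour. The Irx5 peaks run past the upper end of the gene in 11 of 12 libraries, and Irx3 is covered in 2 mfn2-/- libraries only.

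Across the whole Irx3-Irx5-Irx6 cluster, neighbours included, wild-type lists covered 9101 ± 2397 bp and mfn2-/- lists 5605 ± 686 bp (SD, n = 3 each). Coverage reached 11092 ± 4157 bp with vhl-/- and 439 ± 380 bp with HIF1dPA. All autosomal peaks together covered 3014075 to 3513956 bp in wild-type and 1925774 to 2304843 bp in mfn2-/- lists. The part of this shorter total in the values of either Irx cluster was not tested. Crnde, a long noncoding RNA gene next to Irx5, had 487, 665 and 1743 bp in wild-type, 775, 2406 and 601 bp in vhl-/- and 0 in all mfn2-/- and HIF1dPA lists. Irx3os had 2381, 0 and 1108 bp in wild-type and 1444, 1363 and 832 bp in mfn2-/- lists, and the small gene Gm24254 had peaks in 2 wild-type, 1 mfn2-/- and 1 vhl-/- list. Crnde and Irx6 were thus listed in the same genotypes, while Irx3os overlapped between wild-type and mfn2-/- lists. The 9 Crnde peaks were also weak, with a best score of 83.05, and lay scattered over chr8:92205544-92356798. A link between Crnde and Irx6 was not tested.

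The Irx1-Irx2-Irx4 cluster gave no separation of wild-type from mfn2-/- or vhl-/- libraries. Irx2, the most heavily marked gene there, had 3599, 6230 and 3623 bp in wild-type, 5005, 4348 and 3882 bp in mfn2-/- and 5265, 3699 and 7958 bp in vhl-/- lists. The mean differed by -72.3 bp between mfn2-/- and wild-type, well inside the spread within each group. It was also marked most steadily, since its best peak stood at percentiles of 96.1 to 97.5 in wild-type, 83.0 to 98.1 in mfn2-/- and 86.3 to 99.0 in vhl-/- lists. Both of its main regions (chr13:72629705-72636077, over the gene, and chr13:72636223-72640089, beyond its upper end) were called in 10 of 12 lists, including 1 HIF1dPA list each. Gm20554, a predicted gene beside Irx2, had 22 peaks in 9 lists and 2878 ± 493 bp in wild-type, 1987 ± 641 bp in mfn2-/- and 2086 ± 793 bp in vhl-/- lists, and 0 in HIF1dPA lists.

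Irx1, a gene of lung and limb patterning, had 2808, 2535 and 1855 bp in wild-type, 4362, 572 and 551 bp in mfn2-/- and 2734, 3856 and 587 bp in vhl-/- lists. The mutant libraries of one genotype thus differed more among themselves than the wild-type ones. Irx4, which sets ventricular identity in the heart, had wild-type values of 2322, 2553 and 3844 bp, which the mfn2-/- values of 2504, 1418 and 941 bp and the vhl-/- values of 533, 4527 and 5944 bp overlapped. In the HIF1dPA lists Irx1 had 0 peaks, Irx2 had 632, 0 and 682 bp and Irx4 had 0, 825 and 505 bp. Some Irx4 peaks lay far from the gene. The 505 bp peak was 191854 bp away (score 51.21) and the 533 bp peak of vhl-/- replicate 1 was 36357 bp away (score 53.3). A peak of wild-type replicate 2 lay 97789 bp away. Within 5 kb of the gene, HIF1dPA replicate 3 and vhl-/- replicate 1 had 0 bp and wild-type replicate 2 had 1728 bp. The 825 bp Irx4 peak stood 21st of the 499 peaks of HIF1dPA replicate 2. Over the whole cluster, wild-type lists covered 13287 ± 697 bp, mfn2-/- lists 9848 ± 4073 bp, vhl-/- lists 14325 ± 4058 bp and HIF1dPA lists 881 ± 282 bp. The remaining neighbours with a peak were Rpl9-ps4 (3 lists) and Gm10263 (1 list).

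**Figure D4:**
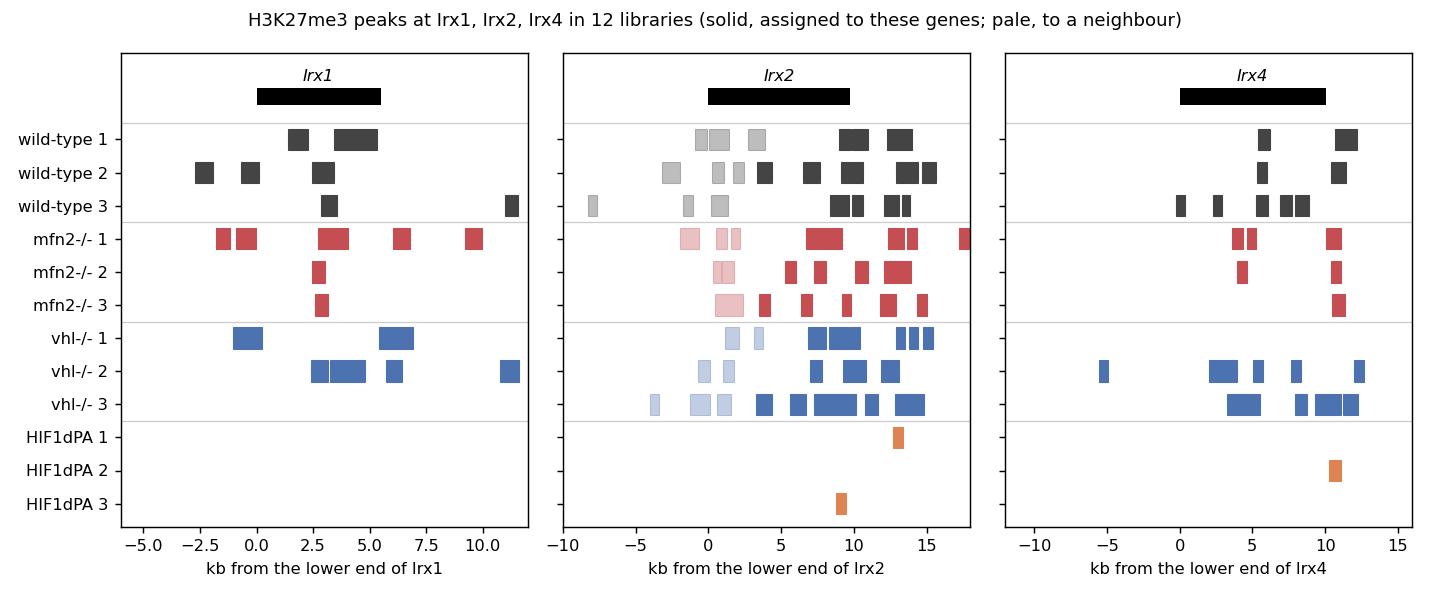
H3K27me3 peaks around Irx1, Irx2 and Irx4 in each of the 12 libraries (rows), drawn as distance in kb from the lower-numbered end of each gene (x axis; peaks farther out are not drawn), with black bars for genes, solid blocks for peaks assigned to these genes and pale blocks for those of a neighbour. Irx2 has an assigned peak in 11 of 12 libraries, and Irx1 has no peak in HIF1dPA libraries.

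Of the Bar genes other than Barhl2, none separated wild-type from mfn2-/- or vhl-/- libraries. Barx1, needed for stomach development, had 3123, 4295 and 8210 bp in wild-type, 4767, 1650 and 2815 bp in mfn2-/- and 4595, 6773 and 2574 bp in vhl-/- lists. Wild-type replicate 3 carried 8 Barx1 peaks against 4 in each of the other 2, and its region upstream of the gene was present in all 9 of these lists. Barhl1 had 2816, 1313 and 4143 bp in wild-type, 1553, 2151 and 2214 bp in mfn2-/- and 2535, 3446 and 4505 bp in vhl-/- lists. Among the Bar genes, Barhl1 peaks kept closest to the gene, with 26 of 27 in promoter classes and 23 of 27 within the RefSeq span, and the 2816 bp peak of wild-type replicate 1 (score 274.78) stood 35th of 3776.

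Barx2 ran the other way. Its wild-type lists had 1198, 0 and 491 bp, the mfn2-/- lists 714, 1815 and 2928 bp, the vhl-/- lists 2728, 1037 and 2782 bp and the HIF1dPA lists 0, 0 and 519 bp. Means were 563 ± 602 bp in wild-type, 1819 ± 1107 bp in mfn2-/- and 2182 ± 992 bp in vhl-/- lists, but both mutants overlapped wild-type through wild-type replicate 1. The region classed as promoter within 1 kb of a start (chr9:31912905-31915995) was called in 0 wild-type, 2 mfn2-/-, 3 vhl-/- and 0 HIF1dPA lists, with 1182, 1037 and 992 bp in the vhl-/- lists. A region farther upstream (chr9:31916179-31917842) was called in 2 wild-type, 1 mfn2-/-, 1 vhl-/- and 0 HIF1dPA lists. Both regions were merged from these same peaks and lie side by side, so the counts depend on the bound between them. Among wild-type, mfn2-/- and vhl-/- lists, the exact permutation p for Barx2 covered length was 0.186 (adjusted p = 0.566). Among all genes, 8.34% were higher in vhl-/- than in wild-type lists without overlap, and 0 of 9 members were.

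Comparing mfn2-/- with wild-type, 1561 genes had a peak in at least 3 of the 6 lists, and mfn2-/- was lower without overlap for 242 (15.5%) and higher for 230 (14.7%). Of the 9 members tested, 3 were lower (Irx5, Irx6 and Barhl2) and 0 higher, and Irx6 entered only through its wild-type peaks. The count varied with the lists and settings used. It was 6 without mfn2-/- replicate 1, beside 26.6% of all genes. Leaving out any 1 library makes non-overlap easier to meet, and the share of all genes was then 19.9% to 26.9%. The count was 1 (Irx5) with all peaks within 5 kb of a gene (15.4% of genes) or with equal numbers of autosomal peaks (11.5%). It was 1 (Irx6) as a share of autosomal base pairs (9.96%), and 0 with promoter classes alone (12.6%). The mfn2-/- lists held 2342 to 2574 autosomal peaks and the wild-type lists 3427 to 3763, and the part of this in the other counts was not tested. Pdgfra, a marker of fibro-adipogenic progenitors, moved the same way, with 5010, 3509 and 1886 bp in wild-type lists, 0, 547 and 1077 bp in mfn2-/- lists, 1210 to 4690 bp in vhl-/- lists and 0 to 516 bp in HIF1dPA lists. As the other 2 of the 3 markers were at 0, these are also the sums of that marker list. The satellite cell genes Pax7 and Myf5 summed to 0 to 2104 bp in wild-type, 0 to 546 bp in mfn2-/-, 0 to 1322 bp in vhl-/- and 0 to 579 bp in HIF1dPA lists, which overlapped. The part of these cell types in the members' values was not tested. The median difference was -1098 bp over members and -278 bp over all genes, with 8 of 9 members and 64.1% of genes below wild-type. Where marked, members had a median of 2758 bp and all genes 859 bp, so differences in bp start from unlike lengths. In vhl-/- lists, 0 of 9 members were lower, as were 58 of 1786 genes (3.25%), and the median difference was 689 bp over members and 185 bp over all genes.

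In HIF1dPA lists, 8 of 9 members were lower than in wild-type lists without overlap and 0 were higher, beside 693 of 925 genes lower (74.9%) and 3 higher (0.324%). Irx1 and Irx6 entered only through wild-type peaks, and Barx2 overlapped. Summed over the members, HIF1dPA lists held 0.0866 of the wild-type length, in lists with 494 ± 10.4 peaks against 3551 ± 195 in wild-type. The members left with a peak in HIF1dPA lists were Irx2, Irx4, Irx5, Barx1, Barx2, Barhl1 and Barhl2, and no member was listed in all 3. On the share of the covered length of the list, 2 members were lower without overlap, beside 43.2% of genes, and with 482 peaks per list 3 were, beside 44.0%. What a smaller list and a change at these genes each contribute cannot be told apart from the lists.

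**Figure D5:**
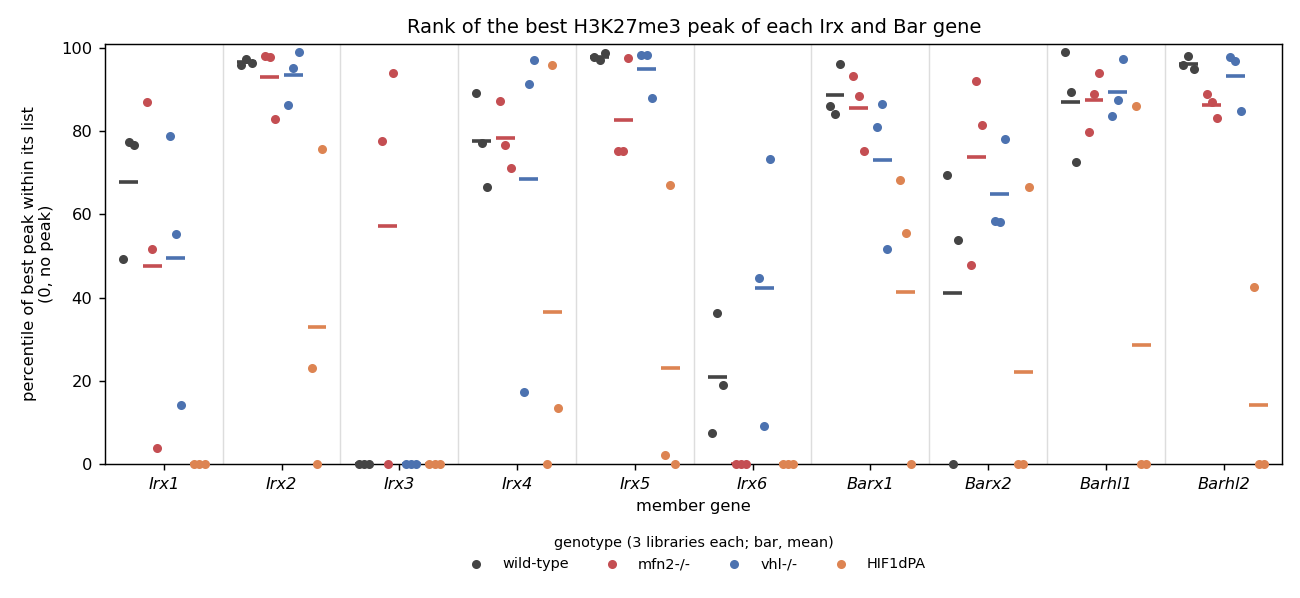
Percentile of the best H3K27me3 peak of each member (x axis) within its own list (y axis, 100 is the strongest peak and 0 marks no peak), by genotype. Points are libraries and bars are means of 3. In wild-type libraries Irx5 stands at 97.2 to 98.9 and Irx6 at 7.38 to 36.2.

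Over the 12 lists, the genes whose covered length followed the 3 longest members closest, by Pearson r, were named by rule. For Barhl2 these were Isl1 (Pearson r = 0.981), a LIM homeobox gene, Foxa1 (0.970), a forkhead gene, and the microRNA gene Mir148a (0.964). For Irx5 they were Fgfr2 (0.962), Isl1 (0.946) and Evx2 (0.940), and for Irx2 they were Gm4675 (0.943), the noncoding RNA gene Hottip (0.939) and Zic1 (0.937). These r describe 12 lists over 1000 candidate genes, and the low HIF1dPA lists, which all genes share, are part of each value.

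Related genes were marked to unlike degrees. Among 12 other TALE homeobox genes, 5 had a peak in any list, and Meis2 was the longest, with wild-type lists at 7697 ± 1464 bp, mfn2-/- at 6343 ± 2060 bp, vhl-/- at 7767 ± 1089 bp and HIF1dPA at 569.7 ± 561 bp, followed by Mkx, Pbx4 and Meis1. Among 15 other NK-like genes, 13 had a peak, led by Vax1, Bsx, Dbx1 and Vax2. Of these, 1 of 12 tested was lower and 1 higher in mfn2-/- without overlap, 0 of 12 either way in vhl-/- and 10 of 10 lower in HIF1dPA lists. Over all genes, 15.5% were lower and 14.7% higher in mfn2-/-, 3.25% and 8.34% in vhl-/-, and 74.9% lower in HIF1dPA lists. Among 14 genes of the Polycomb machinery and its demethylases, 6 had a peak, among them Cbx8 (5382 ± 768 bp in wild-type, 5062 ± 347 bp in mfn2-/- and 6908 ± 2004 bp in vhl-/- lists), Bmi1 and Cbx2, and 0 of 4 tested were lower in mfn2-/-. None of the 19 tested genes of these lists passed the exact permutation test across the 4 genotypes at an adjusted p under 0.05.

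H3K9me3, a mark of constitutive heterochromatin profiled in the same myofibers, hardly touched these genes. Of 20998 H3K9me3 peaks, 7 were assigned to members, in 5 of 12 lists. Barx2 had 5 of them, in 2 wild-type and 2 HIF1dPA lists, and Irx1 and Irx6 had 1 each. All 7 were distal intergenic, with scores of 51.91 to 88.62, and 0 overlapped an H3K27me3 peak.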

How the data were processed

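H3K27me3 and H3K9me3 ChIP-seq libraries of regenerating myofibers (3 per genotype and mark) were assigned to groups from their labelled genotype and antibody. The authors deposited 1 peak list per library, with a score for each peak, an assigned gene and a feature class. This deposited score equals -log10 of the caller's p-value multiplied by 10, and lists stop at 50 (a p of 1e-05). The submitters' processing notes name BWA 0.7.5, MACS, deepTools 3.5.0 and mm10, without their roles. Calling settings and use of the input library are not given in the sources used here. Read counts were not at hand, so depth is unknown.

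Base pairs and within-list percentiles were summed or ranked per gene as assigned. Genes with a peak in at least 3 lists were compared by exact permutation tests over libraries, with Benjamini-Hochberg adjustment over all genes tested. The tests were checked on simulated data. The study describes replicates as separate mice, which the labels do not state. The members, lists and tests were chosen with earlier results of these data known. Genes named are the 10 members, the 3 genes most correlated with each of the 3 longest members, neighbours within 50 kb of the Irx clusters, and up to 4 genes of each related list by mean covered length. One gene that this rule names is not reported here. Software was matplotlib 3.10.9, pandas 2.3.3, numpy 2.4.6 and Python 3.11.15. Alternatives were a score of at least 100, equal numbers of strongest peaks, autosomes, promoter classes, joined peaks (1000 bp), list shares (also autosomal), no filter, the replicate block, gene spans with 5 kb and leaving out each library.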

Additional observations from a re-analysis of the deposited data

How the results depend on the processing

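Among wild-type, mfn2-/- and vhl-/- lists, 0 genes were called by covered length or percentile under every alternative run and without any 1 library (0 to 0). With a smallest exact permutation p of 0.00357 over 2294 genes this design can hardly pass, so the 0 says nothing about stability. Of 135 alternative values of the 15 answers to the comparisons, single libraries aside, 92 were close to the value reported and 43 were not, as follows.

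The count of genes called across the 4 genotypes (44) was 1 with 482 peaks per list, 19 with promoter classes, 168 with gene spans plus 5 kb, 0 on list shares, 0 with no filter and 0 with the replicate block. Without 1 library it was 0 to 104. The replicate block allows fewer distinct arrangements, so its smallest exact permutation p is larger and its 0 says little about stability.

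For mfn2-/-, the members lower than wild-type without overlap (3) were 0 with promoter classes, 1 with gene spans, 1 with equal numbers of autosomal peaks and 1 on autosomal shares, and 2 to 6 without 1 library. The share of all genes lower (15.5%) was 10.1% at a score of at least 100 and 5.99% with 482 peaks per list. On autosomal shares it was 9.96%, and without 1 library it was 19.9% to 26.9%. Non-overlap is easier to meet for any gene with 1 library fewer, here and for the other mutants. The difference in members with a peak (0) was -0.667 at a score of at least 100, 1.67 with promoter classes and -0.333 to 0.333 without 1 library. The ratio of length over the members (0.740) was 0.533 at a score of at least 100, 0.572 with 482 peaks per list, 0.903 with promoter classes, 0.877 with equal autosomal peaks, 1.08 on autosomal shares and 0.687 to 0.807 without 1 library.

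For vhl-/-, too, the direction of the members' length was not settled. The ratio (1.14) was 0.684 with 482 peaks per list, 0.961 on list shares and 0.962 on autosomal shares, and otherwise 1.03 at a score of at least 100, 1.33 with promoter classes, 1.04 with equal autosomal peaks and 1.08 to 1.24 without 1 library. The difference in members with a peak (0.333) was -1 with 482 peaks per list and 1.67 with promoter classes. Members lower without overlap (0) were 1 with 482 peaks per list, where the share of all genes was close to the 3.25% reported. The share of all genes lower (3.25%) was 1.88% at a score of at least 100 and 5.59% to 7.41% without 1 library.

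For HIF1dPA, members lower without overlap (8) were 4 at a score of at least 100, beside 93.5% of genes. They were 3 with 482 peaks per list (44.0% of genes), 2 on list shares (43.2%) and 2 on autosomal shares (43.0%). With promoter classes they were 5, where the share of all genes was close to the 74.9% reported. Without 1 library they were 6 to 8, beside 76.5% to 82.4% of genes. The difference in members with a peak (-5) was -0.667 with 482 peaks per list. The ratio of length (0.0866) was 0.0182 at a score of at least 100, 0.200 with 482 peaks per list, 0.809 on list shares and 0.836 on autosomal shares. The cause of these differences was not tested.

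Libraries with the same replicate number did not deviate together (mean correlation 0.00395 over 18 pairs, -0.0408 to 0.0676). Those with different numbers had a mean of -0.00199 over 36 pairs (-0.134 to 0.0795). Pairing by number was thus not seen, and a shared batch was not tested. With the replicate block, 19.0% of genes had an unadjusted p under 0.05 across the 4 genotypes, against 33.2% without it. Gene spans for lengths, equal autosomal peaks and autosomal shares were chosen after seeing the data. Exact permutation tests of 3 against 3 libraries cannot go below 0.1, and without read counts depth limits could not be computed.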
